A study of Mus musculus with 15 samples.

Results

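The Ly6 surface antigen genes described here are Ly6a, Ly6c1, Ly6c2, Ly6e and Ly6d, 5 of the 27019 gene rows in the deposited count table. They were chosen by name as relatives of Ly6a, whose transcript was about 5-fold lower in untreated Susd2-/- cells, so the day 0 difference between genotypes is given as a description and carries no test. All 5 passed the filter on low counts, which left 16057 genes. RNA came from CD8 T cells isolated from the spleens of OT-I mice (C57BL/6, 8-10 weeks old) that were wild type (WT) or Susd2-/-. Every group carries the OT-I T cell receptor transgene, which recognises an ovalbumin peptide, so most cells share 1 specificity. Cells at day 0 were untreated, and cells at day 3 had been stimulated with OVA257-264. There were 8 libraries in 4 groups of 2, numbered 3 and 4 at day 0 and 1 and 2 at day 3. Whether each library is a different mouse is not stated, and the p-values therefore reflect spread among these libraries alone, which may be technical.

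Ly6 proteins are small cysteine-rich proteins that fold into a three-finger domain and are mostly held on the outer face of the plasma membrane by a glycosylphosphatidylinositol (GPI) anchor. Ly6a encodes Sca-1, a marker of haematopoietic stem cells that T cells also display, and its transcription responds to interferons. Ly6c1 and Ly6c2 encode the Ly6C antigens found on memory T cells and monocytes. Ly6e is a widely expressed interferon-inducible member, and Ly6d encodes ThB, found on B cells and early lymphoid cells.

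The 5 genes lie on mouse chromosome 15 (GRCm38, gene models of GENCODE M21) within 349915 bases that hold 23 annotated genes, 13 of them protein-coding. Ly6d spans 74762056 to 74763620 on the minus strand and Ly6e spans 74955051 to 74959905 on the plus strand. Ly6a spans 74994877 to 74998031, Ly6c1 spans 75044018 to 75048830 and Ly6c2 spans 75108158 to 75111970, all on the minus strand. No other gene model overlaps any of the 5. The values are counts over the exons of these genes, as far as the counting is known.

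Ly6c1 and Ly6c2 are near copies, which bears on how reads were divided between them. Their coding sequences were identical at 97.7% of aligned bases, against 83.8% for Ly6a with Ly6c1, 83.6% for Ly6a with Ly6c2, and 55.5% to 63.2% for the pairs with Ly6e or Ly6d. The first 150 coding bases (GENCODE M21, 5′ to 3′) are shown for the 3 closest members, with capitals where a base differs from Ly6c2.
Ly6c2: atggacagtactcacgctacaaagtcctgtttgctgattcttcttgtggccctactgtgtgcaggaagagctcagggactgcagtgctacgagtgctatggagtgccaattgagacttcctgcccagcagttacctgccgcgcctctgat
Ly6c1: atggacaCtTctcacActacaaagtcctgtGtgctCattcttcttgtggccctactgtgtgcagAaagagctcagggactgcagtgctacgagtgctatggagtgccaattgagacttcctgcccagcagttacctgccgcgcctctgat
Ly6a: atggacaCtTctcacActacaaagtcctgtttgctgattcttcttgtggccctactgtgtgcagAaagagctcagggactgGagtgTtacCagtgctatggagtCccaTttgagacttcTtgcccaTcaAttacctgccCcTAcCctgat
Ly6c1 differs from Ly6c2 at 6 of these bases and Ly6a at 16. Of the 150-base windows of a transcript, 5.61% of those of Ly6c1 and 5.79% of those of Ly6c2 were shared with the other, and 0 of those of Ly6a, Ly6e and Ly6d were found in another transcript. Reads were paired ends of 150 bases, per the labels' protocols. Of 75-base windows, as a trimmed read or part of a read would give, 23.2% of those of Ly6c1, 21.9% of those of Ly6c2 and 0.805% of those of Ly6a were shared. How reads with several alignments were counted is not given in the sources used here, so the split between Ly6c1 and Ly6c2 is uncertain.

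The promoters of Ly6c1 and Ly6c2 are shown because the levels of these near copies differed in size and in genotype. They are the 250 bases before the RefSeq start (GRCm38.p6, minus strand, 5′ to 3′), chr15:75048838-75049087 for Ly6c1 and chr15:75111972-75112221 for Ly6c2. Capitals mark matches, on either strand, to 3 of the searched motifs, namely the TATA box TATAAA, the Runx motif TGTGGT and the Ets motif GGAAGT.
Ly6c1: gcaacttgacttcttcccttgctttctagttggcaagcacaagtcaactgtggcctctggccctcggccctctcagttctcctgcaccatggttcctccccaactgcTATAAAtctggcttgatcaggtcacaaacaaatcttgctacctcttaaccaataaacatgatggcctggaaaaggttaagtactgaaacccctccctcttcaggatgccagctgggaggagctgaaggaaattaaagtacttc
Ly6c2: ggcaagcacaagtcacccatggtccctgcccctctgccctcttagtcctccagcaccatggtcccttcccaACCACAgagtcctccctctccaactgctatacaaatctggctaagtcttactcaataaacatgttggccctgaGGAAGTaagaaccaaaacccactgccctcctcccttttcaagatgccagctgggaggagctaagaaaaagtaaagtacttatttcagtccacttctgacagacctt
The 2 promoters were identical at 75.9% of aligned bases. The TATA box match lay 143 bases before the start of Ly6c1, and Ly6c2 had the Runx match at 179 and the Ets match at 106 bases before its start. Neither held TTCNNNGAA, the gamma-activated site bound by STAT proteins, or GAAANNGAA, a core of interferon regulatory factor sites. Of 27025 RefSeq promoters of this length, 7.18% held the first of these, 7.16% the second, 14.2% the Runx motif, 20% the Ets motif and 13% the TATA box. These matches are letters in a window and say nothing of binding. The promoter of the nearby Ly6a2, annotated in GENCODE M21 as a transcribed pseudogene, was identical to that of Ly6c2 at 98.4% of aligned bases. It also held a Runx and an Ets match. Ly6a2 had 23 and 32 counts in WT at day 0, against 3879 and 3777 for Ly6c2. Any link between matches and levels was not tested. Ly6a, Ly6e and Ly6d have no promoter shown here.

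Library totals ran from 26829807 to 53846911 counts. Susd2 had 90 and 80 counts in the WT and 1 and 3 counts in the Susd2-/- libraries at day 0, and 16 and 10 against 0 and 2 at day 3, as the labels state. Cd8a stood at 719 to 1256 CPM in all 8 libraries and Cd4 at no more than 0.410 CPM. Levels are CPM, counts scaled to a common library size with TMM, the trimmed mean of M-values. Summed B cell markers (20 genes) ran at 635 to 647 CPM in WT and 694 to 761 CPM in Susd2-/- at day 0, and at 286 to 310 CPM at day 3. Summed monocyte and macrophage markers (20 genes) ran at 274 to 283 and 294 to 319 CPM at day 0, and at 49.9 to 64.7 CPM at day 3. The macrophage sum moved less than its members. Between the genotypes at day 0, where 11.5% of all genes rose and 12.1% fell, 9 of the 20 rose and 1 fell (median log2 fold change 0.93). Those that rose included Csf1r, the receptor of macrophage growth factor (1.25, adjusted p = 0.000132), and Apoe, a lipid carrier (1.27, adjusted p = 3.57e-05). The abundant Ctss fell (-0.73, adjusted p = 5.73e-07). Csf1r reached no more than 0.0708 CPM at day 3. Against the same shares of all genes, 5 of 15 natural killer cell markers fell and 1 rose between the genotypes at day 0. Their sums were 187 to 190 CPM in WT and 152 to 154 CPM in Susd2-/-. Of 24 memory-phenotype CD8 T cell genes 7 fell and 4 rose. Of 17 CD8 T cell identity genes 6 fell and 3 rose, with sums of 8510 to 8620 CPM in WT and 7750 to 8290 CPM in Susd2-/-. Of 8 CD4 and regulatory T cell markers 3 rose and 0 fell, with sums of 79.7 to 82.9 CPM in WT and 125 to 136 CPM in Susd2-/-. Of 7 plasma cell markers 2 fell and 2 rose (median 0.59). Igha (-2.47, adjusted p = 5.14e-07) and Jchain (-2.24, adjusted p = 4.51e-05) fell. Sdc1 (2.00, adjusted p = 0.000217) and Xbp1 (0.587, adjusted p = 4.39e-05) rose. The part of these cells in the day 0 values of the Ly6 genes was not tested. In bulk RNA, fewer cells of a type and less RNA per cell cannot be told apart.

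At day 0 the Ly6 genes of Susd2-/- cells differed from WT in different directions and sizes. Ly6a stood at 76.4 and 75.7 CPM in WT and at 15.3 and 14.3 CPM in Susd2-/-, a level 5.14-fold lower (log2 fold change -2.36 ± 0.13, SE). Ly6c1 stood at 5.31 and 5.36 CPM in WT and 1.87 and 1.44 CPM in Susd2-/-, 3.22-fold lower (-1.69 ± 0.35). Both WT libraries were the high ones for both genes.

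Ly6c2, the near copy, stood at 121 and 129 CPM in WT and 117 and 109 CPM in Susd2-/- at day 0, a difference of -0.14 ± 0.21 on the log2 scale. The WT libraries were again the higher ones, by less. Ly6e was the member with more RNA in Susd2-/-, at 601 and 577 CPM against 518 and 516 CPM in WT (0.19 ± 0.060). Ly6d was near the detection limit, with 40 and 48 counts in WT and 18 and 18 counts in Susd2-/-. Its 36 counts in Susd2-/- came to 42.2% of the WT level, with a 95% interval of 27.8% to 62.8% that covers counting error only. Of all 16057 genes, 23.6% were called between the genotypes at day 0 by edgeR (adjusted p below 0.05) and 65% had groups that did not overlap, and nothing is read from the members against these shares because this comparison chose them.

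**Figure D1:**
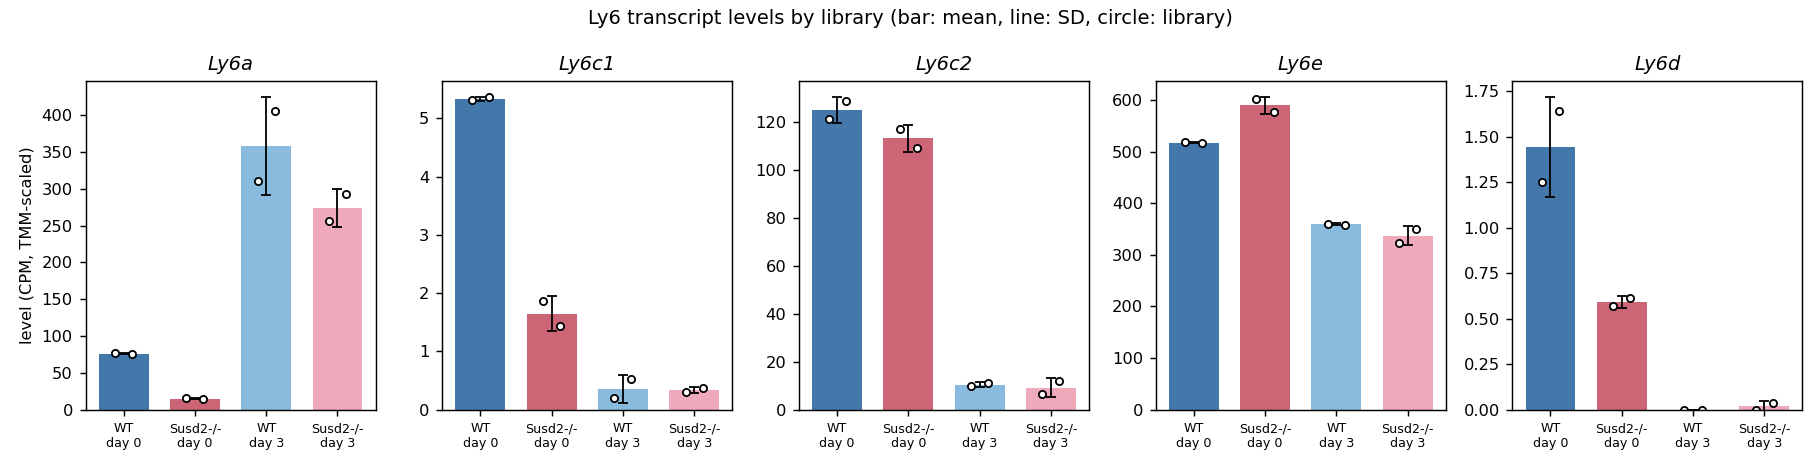
Levels (TMM-scaled CPM) of the 5 Ly6 genes in each library, with 1 panel per gene and its own axis from 0. Bars are group means, lines are SD over 2 libraries and circles are libraries. Ly6a is lowest in Susd2-/- at day 0 and highest at day 3, while the other 4 genes are lower at day 3 than at day 0.

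Ly6a stood higher at day 3 than at day 0 in WT cells, and the other 4 members stood lower. The WT day 0 libraries are shared with the comparison that chose the genes. Ly6a went from 76.4 and 75.7 CPM to 310 and 405 CPM, 4.70-fold higher (2.23 ± 0.12). This rise is given without a test because the day 0 level of Ly6a in WT entered that comparison. The 2 stimulated libraries differed by more than the untreated ones, yet both lay far above them.

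Ly6c1 fell from 5.31 and 5.36 CPM to 0.194 and 0.531 CPM in WT, 14.8-fold lower (-3.89 ± 0.42, adjusted p = 9.59e-08), and rested on 6 and 15 counts at day 3. Ly6c2 fell from 121 and 129 CPM to 9.72 and 11.1 CPM, 12.0-fold lower (-3.59 ± 0.26, adjusted p = 5.83e-05). The near copies started far apart, with a Ly6c2 to Ly6c1 ratio per kilobase of transcript of 23.4 and 24.7 at day 0. At day 3 the ratio was 51.5 in WT library 1 and 21.5 in WT library 2, which disagree. Ly6e fell from 518 and 516 CPM to 360 and 358 CPM, 1.44-fold lower (-0.53 ± 0.060, adjusted p = 1.71e-07). Ly6d had 0 counts in both WT libraries at day 3, which is 32.1-fold lower if 3 counts over the group are taken as the floor. The 95% counting interval of the same ratio, which also covers the error of the day 0 counts, reached 3.91% of the day 0 level and so allows a smaller fold. Ly6d passed the filter on low counts through its day 0 libraries alone, which favours a fall, so no test of it is given. Ly6c1, Ly6c2 and Ly6e passed the test, where 75.2% of all genes did. Groups did not overlap for 88.3% of all genes, so the count of calls is near what the whole table gives. The median log2 fold change of all genes was -0.14, against -3.59 over the 5 members.

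In Susd2-/- cells the same 4 members stood lower and Ly6a stood higher at day 3. Ly6a went from 15.3 and 14.3 CPM to 256 and 293 CPM, 18.5-fold higher (4.21 ± 0.14), which is given without a test because its low day 0 level chose the genes. Ly6c1 fell from 1.87 and 1.44 CPM to 0.303 and 0.374 CPM (-2.25 ± 0.43, adjusted p = 0.000102). Ly6c2 fell from 117 and 109 CPM to 6.57 and 11.9 CPM (-3.57 ± 0.25, adjusted p = 5.40e-05). The Ly6c2 libraries at day 3 differed from each other by more than those at day 0, but neither came near the untreated level.

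Ly6e fell from 601 and 577 CPM to 323 and 350 CPM in Susd2-/- (-0.81 ± 0.060, adjusted p = 3.17e-10). Ly6d went from 18 and 18 counts to 0 and 2 counts, given without a test because of the filter, as in WT. That is 3.66% of the day 0 level, with a counting interval of 0.427% to 14.2%. The share of all genes called in this comparison was 76.4%. Summed monocyte, macrophage and B cell markers were lower at day 3 in both genotypes, as given above. Their part in the lower levels of Ly6c1, Ly6c2 and Ly6d was not tested.

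**Figure D2:**
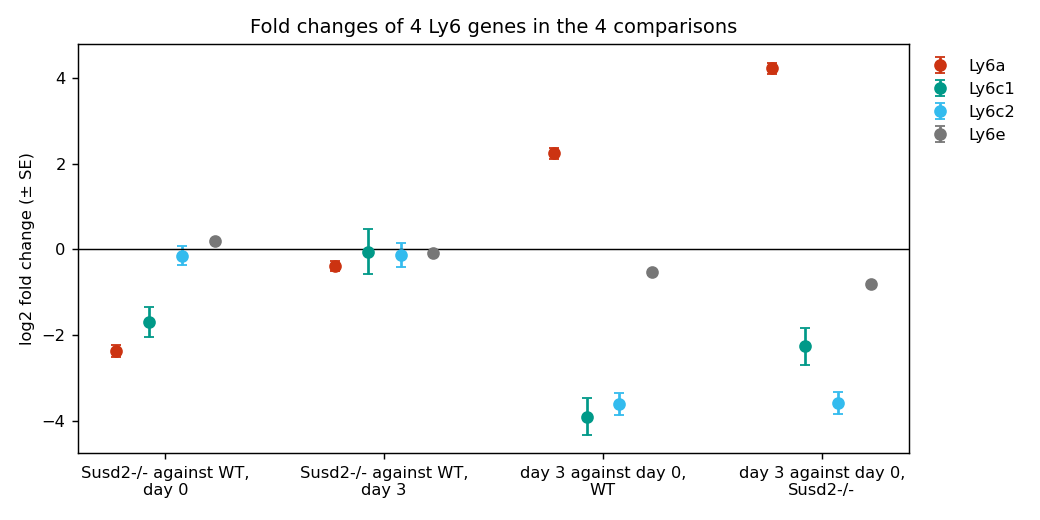
Log2 fold changes ± SE of Ly6a, Ly6c1, Ly6c2 and Ly6e in the 4 comparisons, with Ly6d left out because its day 3 libraries hold 0 to 2 counts. Ly6a is at -2.36 between genotypes at day 0 and -0.38 at day 3, and is the gene above 0 in both day comparisons.

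At day 3 no member passed between the genotypes. Ly6a stood at 310 and 405 CPM in WT and 256 and 293 CPM in Susd2-/-, 1.30-fold lower without overlap (-0.38 ± 0.11, 95% interval -0.64 to -0.13), and did not pass (adjusted p = 0.403), and 33.7% of all genes had groups without overlap. Ly6c1 stood at 0.194 and 0.531 against 0.303 and 0.374 CPM, and Ly6c2 at 9.72 and 11.1 against 6.57 and 11.9 CPM, with overlapping groups. Their intervals were wide, at -1.15 to 1.05 for Ly6c1 and -0.83 to 0.59 for Ly6c2, and with 1 library left out the values ran from -0.56 to 0.85 and from -0.66 to 0.20. Ly6e stood at 360 and 358 CPM in WT and 323 and 350 CPM in Susd2-/- (-0.09 ± 0.060, adjusted p = 0.760), without overlap. Ly6d had 0 to 2 counts in every library and no fold is given. None of the 5 passed by edgeR, against 0.137% of all genes (22 genes), and 1 member, Ly6a, had an unadjusted p below 0.05, as did 1267 genes.

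The day 3 value of Ly6a depended on which WT library was kept. Without WT library 1 the difference was -0.51 and passed (adjusted p = 3.94e-05), and without WT library 2 it was -0.15 (adjusted p = 0.802). Each of these fits has 1 WT library at day 3, which is assumed to vary like the other groups. The prior degrees of freedom for Ly6a, which set how far its spread is taken from other genes, were 66.6 and 75.2 in them against 5.10 with all libraries. WT library 2, the one with a single lane, also had the higher sum of the 46 interferon-induced genes, at 4970 CPM against 3980 CPM in WT library 1 and 4310 and 4170 CPM in Susd2-/-. Of those 46 genes, 17 fell in Susd2-/- without WT library 1, where 1.81% of all genes were called, and 0 fell and 1 rose without WT library 2, where 0.344% were. The part of this library in the difference was not tested.

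The make-up of the family differed between the days. At day 0 it also differed between the genotypes, which restates the low Ly6a level that chose the genes. Shares were taken of the summed level per kilobase of transcript, which makes genes of different length comparable. Ly6a held 19.6% and 19.1% of that sum in WT at day 0 and 4.35% and 4.31% in Susd2-/-. Ly6e held 47.7% and 46.7% in WT and 61.6% and 62.3% in Susd2-/-, and Ly6c2 31.0% to 33.3% in all 4 untreated libraries. A lower share of Ly6a by itself raises the shares of the others. At day 3 Ly6a held 67.5% to 74.3%, Ly6e 23.6% to 30.7% and Ly6c2 1.73% to 2.76%. Ly6e thus led at day 0 in both genotypes and Ly6a at day 3, with no overlap between libraries of the 2 days. The order at day 0 was Ly6e, Ly6c2, Ly6a, Ly6c1 and Ly6d in every library, but it rests on the length of 1 transcript per gene. With the union of all annotated exons as the length, Ly6a (25.4% and 25.0%) stood above Ly6c2 (17.7% and 18.7%) in WT at day 0, while Ly6e still led at day 0 and Ly6a at day 3.

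**Figure D3:**
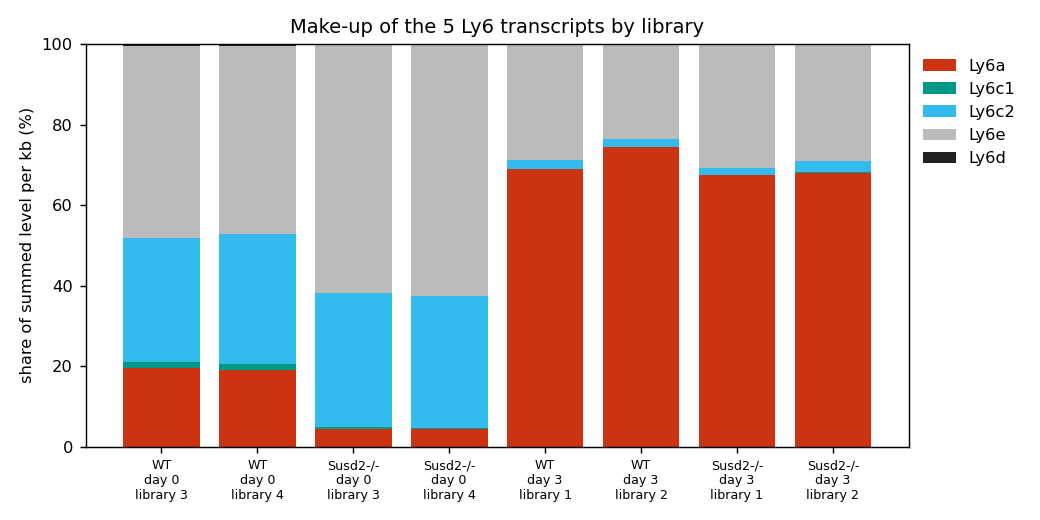
Stacked shares, in percent of the summed level per kilobase of transcript, of the 5 Ly6 genes in each library. Ly6a takes 4.31% to 19.6% of the sum at day 0 and 67.5% to 74.3% at day 3, while Ly6c2 drops from at least 31.0% to at most 2.76%.

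Genes beside the Ly6 cluster were called about as often as genes elsewhere. Of 23 tested neighbours on chromosome 15 without a Ly6 domain, 3 rose and 2 fell between the genotypes at day 0, with a median log2 fold change of 0.03, against 23.6% of all genes called. They included Arc, an activity-regulated cytoskeletal gene (0.92, adjusted p = 0.00859), and Eef1d, a translation elongation factor subunit (-0.30, adjusted p = 0.00173). In WT between day 0 and day 3, 10 rose and 6 fell, against 75.2% of all genes called. Gsdmd, the pore-forming gasdermin of pyroptosis, fell (-2.19, adjusted p = 1.45e-10), and Them6 rose (1.08, adjusted p = 1.29e-09).

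Of 39 listed other Ly6 and uPAR domain genes, 21 were in the table and 8 were tested. Between the genotypes at day 0, where 23.6% of all genes were called, 1 rose and 0 fell: Plaur, the urokinase receptor, stood at 16.9 to 18.6 CPM in WT and 51.9 to 52.4 CPM in Susd2-/- (1.55, adjusted p = 4.53e-06). In WT between the days, where 75.2% of all genes were called, 4 fell and 0 rose, namely Lypd6b, Ly6g5b, Lynx1 and Ly6a2. The pseudogene Ly6a2 had 2 and 0 counts in WT and 0 and 0 in Susd2-/- at day 3. It passed the filter through day 0 alone, which favours a fall. Lypd6b, a nicotinic receptor modulator, had a log2 fold change of -6.01 (adjusted p = 1.80e-14). Lynx1, which also binds nicotinic receptors, had one of -2.08 (adjusted p = 0.000160). Ly6k, next to Ly6d, stood at 1.12 and 1.30 CPM in WT and 0.633 and 0.479 CPM in Susd2-/- at day 0, and at 2.55 and 1.73 against 0.707 and 0.532 CPM at day 3, and passed neither genotype test (adjusted p = 0.0916 and 0.151). Ly6g, the neutrophil antigen, had 0 counts in all libraries but 1 Susd2-/- library with 2.

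**Figure D4:**
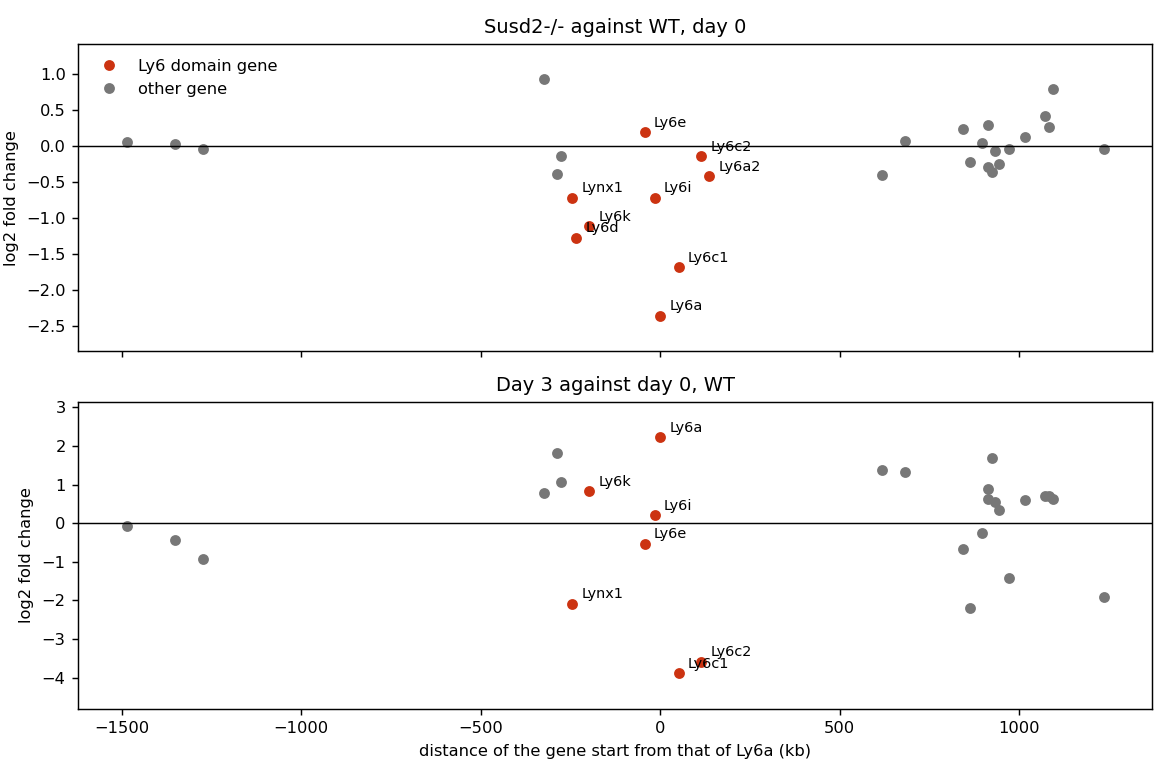
Log2 fold changes of the listed genes of chromosome 15 near the cluster that passed the filter against the distance in kb of their start from that of Ly6a, between genotypes at day 0 (top) and between days in WT (bottom). Red points are named Ly6 domain genes and grey points are other genes. Ly6d and the pseudogene Ly6a2, which have libraries at 0 at day 3, are left out of the bottom panel. Ly6a has the lowest value at day 0 in the top panel and the highest in the bottom panel.

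Of 46 interferon-induced genes tested, 21 fell, 1 rose and 24 did not pass between the genotypes at day 0 (median -0.40), where 12.1% of all genes fell and 11.5% rose. Igtp, an interferon-induced GTPase, stood at 189 to 199 CPM in WT and 70.3 to 70.5 CPM in Susd2-/- (-1.46, adjusted p = 1.99e-09), and Irgm2, another such GTPase, had a fold change of -1.25 (adjusted p = 8.63e-08). In WT between the days, 32 fell and 6 rose (median -0.86), where 39% of all genes fell and 36.2% rose. Oas2, which senses double-stranded RNA, fell (-5.85, adjusted p = 5.69e-16), while Igtp rose (0.40, adjusted p = 0.000178). Irgm2 fell in WT (-0.69, adjusted p = 3.04e-06) and rose in Susd2-/- (0.59, adjusted p = 2.96e-05).

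Among 22 interferon receptor, JAK-STAT and IRF genes, 3 rose and 4 fell between the genotypes at day 0, against 23.6% of all genes called. Irf1, a transcription factor of the interferon response, was lower in Susd2-/- (-0.59, adjusted p = 2.79e-06). The gamma interferon receptor chains were higher, Ifngr1 by 0.65 (adjusted p = 4.28e-07) and Ifngr2 by 0.73 (adjusted p = 3.45e-05). At day 3 no gene of either list passed by edgeR, where 0.137% of all genes did. An unadjusted p below 0.05 was held by 7 of the 46 and 5 of the 22, and by 1267 of all 16057 genes.

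Of 15 other GPI-anchored proteins of lymphocytes tested, 4 fell and 1 rose between the genotypes at day 0, where 23.6% of all genes were called. Cd48, a ligand of the receptor CD244, fell (-1.02, adjusted p = 2.91e-09), as did Cd52 (-0.86, adjusted p = 7.27e-09). Of 28 genes that build or transfer the GPI anchor, 5 fell and 1 rose, with a median of -0.06, which is near the share of all genes. In WT between the days, where 75.2% of all genes were called, 5 of the 15 rose and 9 fell, and 11 of the 28 rose and 12 fell.

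Over the 8 libraries, Ly6c1, Ly6c2, Ly6e and Ly6d followed each other and Ly6a ran against them. Pearson's r of log2 CPM was 0.82 to 0.98 among the 4, and -0.63 to -0.94 between Ly6a and each of them. The points are 4 groups of 2 libraries, so these coefficients mostly describe the group means. Between the genotypes at day 0 the directions grouped otherwise. Ly6a, Ly6c1, Ly6d and, by -0.14 ± 0.21, Ly6c2 were lower in Susd2-/-, and Ly6e was higher. The genes most like Ly6a, among 10066 compared, were Fuca2 (r = 0.9968), Cdkn2aipnl, BC031181, Naa38 and Rbm3. Fuca2, a secreted fucosidase, averaged 31.8 CPM in WT and 20.1 CPM in Susd2-/- before stimulation, and 44.2 and 42.7 CPM after it. Among those most like Ly6c1 were Cd53 (r = 0.9982), Eef1a1, Gbp7 and Rps7. For Ly6a, 518 genes had an r over 0.95, so the named genes are the top of a long list.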

How the data were processed

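The authors deposited raw counts per gene symbol in 15 columns, whole numbers with no normalization, per the file headers and the values. Each column was 1 lane of a library. Lanes were summed to 8 libraries, and 1 library (WT day 3, library 2) had a single lane. The submitters' processing notes list GRCm38 and the tools Subread 2.0.1, SAMtools 1.10, HISAT2 2.1.0 and fastp 0.23.2. Which annotation, strand setting and multi-mapping rule were used is not given in the sources used here.

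Genes were kept by filterByExpr and 1 model of the 4 groups was run in edgeR 4.0.16 under R 4.3.3, with TMM and the robust quasi-likelihood F test, adjusted by Benjamini-Hochberg over 16057 genes. An adjusted p below 0.05 is what rose, fell or passed means, and every adjusted p is edgeR's. Dividing the absolute log2 fold change by the root of F gave the SE. Levels per kilobase used 1 transcript per gene.

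A count of 2 was 1.69 to 2.04 times as frequent as a count of 1 across lanes, so intervals from counts are too narrow. The fold of Ly6d from the floor of 3 counts may be too high for the same reason. Members, lists and alternatives were chosen with earlier results of these data known. Named genes are the 5 members, Susd2, up to 4 genes of smallest adjusted p per list, Ly6 genes of the cluster that passed the filter, and the 5 genes of highest r per member with an average log2 CPM of at least 1. Igtp and Irgm2 in the day comparisons, and Ly6g, Cd8a and Cd4, were named after their values were seen. Some genes that the rule gives are not reported here. The procedure was tested on simulated data. Library numbers did not pair the libraries (r = 0.009 at day 0 and -0.01 at day 3), so no pairing entered the fit.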

Additional observations from a re-analysis of the deposited data

Results flagged for a closer look

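Ly6e is listed because every Susd2-/- library lay above every WT library at day 0 and below every WT library at day 3. Groups without overlap are frequent with these libraries, at 65% of all genes at day 0 and 33.7% at day 3. How many genes change direction in this way was not computed. The log2 fold change of Susd2-/- against WT was 0.19 at day 0 and -0.093 at day 3. An interaction of genotype and day was fitted across all genes, but no test of it is given for Ly6e, because it holds the day 0 comparison that chose the genes.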

How the results depend on the processing

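The falls of Ly6c1, Ly6c2 and Ly6e passed in each genotype in every fit run with 2 libraries per group. They kept their direction in each fit without 1 library. The higher day 3 level of Ly6a and the lower one of Ly6d are described without a test. The library-number replicate block gave 3406, 17, 11935 and 12176 changed genes (genotype at day 0, at day 3, day in WT, day in Susd2-/-), with Ly6a at -0.38 at day 3 (adjusted p = 0.0561), and changed no member's call. Leaving out 1 library at a time gave 2044 to 4410 genes for genotype at day 0 and 6 to 392 at day 3, and Ly6a at day 3 ran from -0.51 to -0.15. Counting the day 0 libraries of a group as 1 left 725 genes at day 0 and 1 at day 3. Only the groups compared gave 5627 genes for genotype at day 0. The main fit uses 1 spread per gene for all groups, though agreement of libraries differed between the days. Chi-square per degree of freedom between the libraries of a group was 3.37 (WT) and 6.30 (Susd2-/-) at day 0. At day 3 it was 12.5 and 16.0. At day 3, no filter on low counts gave 138 genes and Ly6a at -0.33 (adjusted p = 0.00896, with prior degrees of freedom of 13500 against 5.10), only the groups compared gave 3, and DESeq2 1.42.0 gave 66. With the counts of Ly6a, Ly6c1 and Ly6c2 summed, the value in place of that of Ly6a was -0.67 for genotype at day 0. For day it was 0.84 in WT and 1.13 in Susd2-/-. Ly6c1 with Ly6c2 gave -0.18 for genotype at day 0, since Ly6c2 holds most of those counts. Exon union lengths, chosen after seeing the data, lowered the share of Ly6c2 in WT at day 0 and put Ly6a above it. Library totals in place of TMM kept the order of Ly6e between genotypes at both days. The causes of the other shifts were not tested. Members with under 20 counts in a library are limited by depth. These are Ly6d at day 3 and in Susd2-/- at day 0, and Ly6c1 at day 3.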
